A study of Mus musculus with 8 samples.

Results

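Oligo4 is the fourth of the oligodendrocyte states that the authors defined by clustering single-cell RNA profiles of the mouse brain, and its cells from wild-type (WT) mice are described here against the Oligo2 and Oligo3 cells of the same libraries. The cells were chosen by their deposited cluster number, which gave 409 WT Oligo4 cells of 5885 WT cells and of 12581 cells in all. The study's text gives more cells and genes than the matrix used here holds, and all shares are over the cells of that matrix. Another 653 Oligo4 cells came from the KO libraries of the study, which lack an enhancer of Csf1r, and are not described. WT Oligo3 held 4363 cells, WT Oligo2 held 1107 cells and WT Oligo1 held 6 cells. The WT cells came from 4 libraries, a hippocampus and a cortex library from each of 2 female mice. Mouse 1 was 1 month and 18 days old and mouse 4 was 1 month and 16 days old, and no agent was given to either. In the study's methods, the cortex libraries are what was left of the left hemisphere after the hippocampus, olfactory bulb and cerebellum had been taken away. Cells were dissociated with actinomycin D, sorted on scatter and viability and captured in droplets, and the authors kept mature oligodendrocytes of at least 5000 UMIs. A UMI (unique molecular identifier) marks a single captured RNA molecule.

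Oligodendrocytes wrap axons of the central nervous system in myelin, a stack of compacted membrane that is rich in cholesterol and galactolipids and held together by a small set of very abundant proteins. Myelin basic protein (Mbp) packs the membrane layers, whereas myelin oligodendrocyte glycoprotein (Mog) and myelin-associated glycoprotein (Mag) sit on its outer and inner faces. At the edges of each wrapped segment, glial loops are anchored to the axon by adhesion proteins at paranodes. Mature oligodendrocytes differ among themselves, and one known axis runs between cells rich in Klk6, Hapln2 and S100b and cells rich in Apod, Ptgds and Il33.

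The values given are the deposited log2 of the normalized UMI count plus 1, averaged over the cells of a cluster in a library, and lists of 4 values follow the order hippocampus of mouse 1, cortex of mouse 1, hippocampus of mouse 4 and cortex of mouse 4. Genes were compared where the share of cells with a UMI, taken as a mean across the 3 clusters and 4 libraries, reached 5%, which left 9305 genes. Because the clusters were made from these same expression values, differences between clusters are described and not tested. A gene is called higher or lower in Oligo4 where its mean difference over the 4 libraries was at least 0.25 and had the same sign in all 4.

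Oligo4 cells carried the markers by which oligodendrocytes are recognized. Mog and Mag had a UMI in all Oligo4 cells of every library, also after each cell had been thinned to 5000 UMIs. The mean Mog level was 4.24, 4.33, 4.15 and 4.24 in Oligo4, above every Oligo3 value (3.84 to 3.93) and every Oligo2 value (3.88 to 4.03). Mag did not differ in this way, with means of 4.62 ± 0.20 in Oligo4, 4.57 ± 0.19 in Oligo3 and 4.67 ± 0.19 in Oligo2 (SD over 4 libraries). Markers of other cell types were low. The 6 neuronal markers summed to 6.92 to 20.8 UMIs per 1000000 in Oligo4, the 11 microglial markers to 53.7 to 115 and the 6 endothelial markers to 5.19 to 10.6. The 8 astrocyte markers summed to 153 to 171 UMIs per 1000000 in Oligo4, below the 248 to 314 of Oligo3 and the 206 to 301 of Oligo2. The 5 progenitor markers summed to 22.6 to 41.5, the 4 haemoglobin genes to 15.8 to 29.5 and the 6 mural and fibroblast markers to 0 to 1.51, with 4 of these 6 at 0 UMIs. Of the 5 ependymal and choroid markers, Ccdc153, Tmem212 and Kl were at 0 UMIs in Oligo4, and the list summed to 37.7 to 51.3 UMIs per 1000000 in Oligo4, 19.8 to 37.7 in Oligo3 and 12.8 to 19.9 in Oligo2. Foxj1, a transcription factor of ciliated cells, had a UMI in 15.5% of Oligo4 cells thinned to 5000 UMIs, 10.4% of Oligo3 cells and 4.38% of Oligo2 cells (38.1%, 20.8% and 8.14% unthinned), and its level was not called different.

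Oligo4 was the smallest of the 3 states in every library. It made up 6.28% (95% Clopper-Pearson interval 5.34 to 7.33, 149 of 2373 cells) of the hippocampal and 2.83% (2.01 to 3.87, 38 of 1342) of the cortical cells of mouse 1, and 11.9% (10.0 to 14.1, 125 of 1047) of the hippocampal and 8.64% (7.06 to 10.4, 97 of 1123) of the cortical cells of mouse 4. These intervals cover counting error only. The share was higher in hippocampus than in cortex within each mouse, by 3.45 percentage points in mouse 1 and 3.30 points in mouse 4. The means were 9.11% ± 4.00 in hippocampus and 5.74% ± 4.11 in cortex (SD, n = 2), and this difference of 3.37 points was smaller than the SD within each tissue (exact permutation test, two-sided, p = 0.667, where 2 libraries against 2 allow no p below 0.333). Leaving out the cortex library of mouse 1 lowered the difference to 0.471 points, leaving out the hippocampal library of mouse 4 lowered it to 0.544 points, and leaving out either of the other libraries raised it to 6.20 or 6.28 points. No barcode of an Oligo4 cell occurred in another WT library, and 3 barcodes were shared between WT libraries in all.

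Oligo4 cells were also the deepest. Their median UMI count was 12390, 16086.5, 14328 and 13970 in the 4 libraries, against 9097.5, 12007, 12827 and 10605 in Oligo3 and 10202.5, 13700.5, 13976 and 12167 in Oligo2. At 5000 UMIs per cell, the median number of genes per cell was 2031.5 to 2055 in Oligo4 and 2052 to 2067 in Oligo3. The authors' methods name a batch of poorer quality, which among WT libraries is the cortex library of mouse 4. Since each library was its own batch, clusters were compared within libraries. For the shares above, hippocampus and cortex of a mouse cannot be told apart from their batches.

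**Figure D1:**
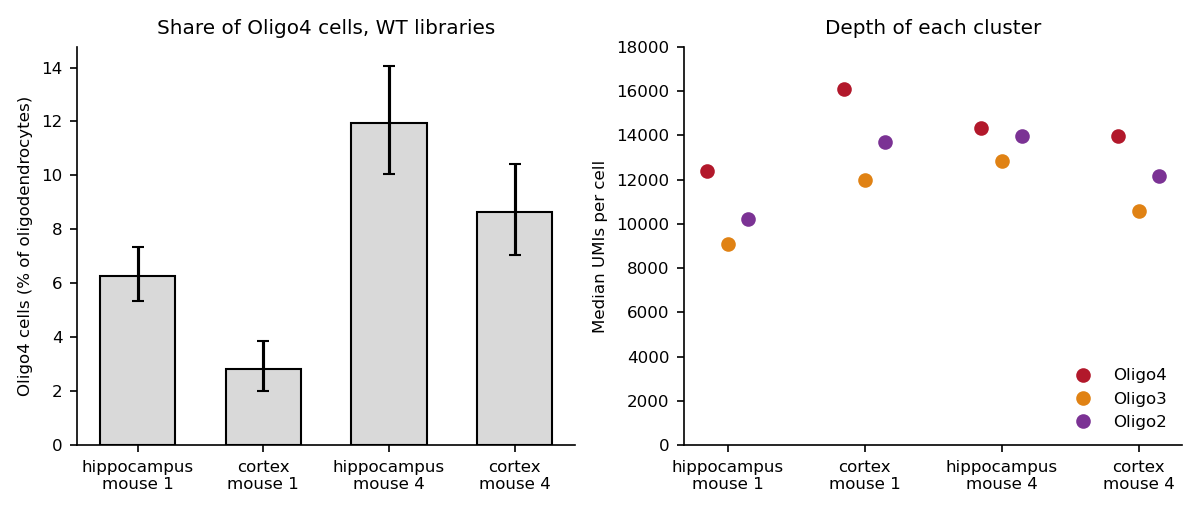
The left plot gives Oligo4 cells as a percentage of all oligodendrocytes in each WT library (bars, with 95% Clopper-Pearson intervals), and the right plot gives the median UMIs per cell of Oligo4, Oligo3 and Oligo2. Oligo4 ranged from 2.83% to 11.9% and had the highest median depth in each library.

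Against Oligo3, the largest state, 124 of 9305 genes (1.33%) were called higher in Oligo4 and 109 (1.17%) lower, while the median difference over all genes was 0.0059. Differences of at least 0.5 were reached by 21 of the higher and 28 of the lower genes, and a difference of 1 or more only by 8 genes, all lower. Against Oligo2, 241 genes (2.59%) were called higher and 298 (3.20%) lower, with a median over all genes of 0.0017. Both comparisons use the same Oligo4 cells. Of the genes called higher against Oligo3, 102 were also called higher against Oligo2, and of the genes called lower, 92 were also called lower. Only 6 genes were called in opposite directions. Ptgds, Il33, Qdpr, Jph4 and C030029H02Rik were below Oligo3 and above Oligo2, and Hmgcs1 was above Oligo3 and below Oligo2. Counts on a scale closer to plain folds were several times larger. With edgeR's log2 fold changes of summed UMIs and the same limits, 830 genes were higher and 1049 lower than in Oligo3, and 1343 higher and 1442 lower than in Oligo2, and these sets held every gene called on the deposited scale. With log2 of the mean normalized count plus 0.1, the split against Oligo3 moved to 485 higher and 727 lower genes. Without the cortex library of mouse 4, 127 genes were higher and 108 lower than in Oligo3, and 241 higher and 295 lower than in Oligo2.

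**Figure D2:**
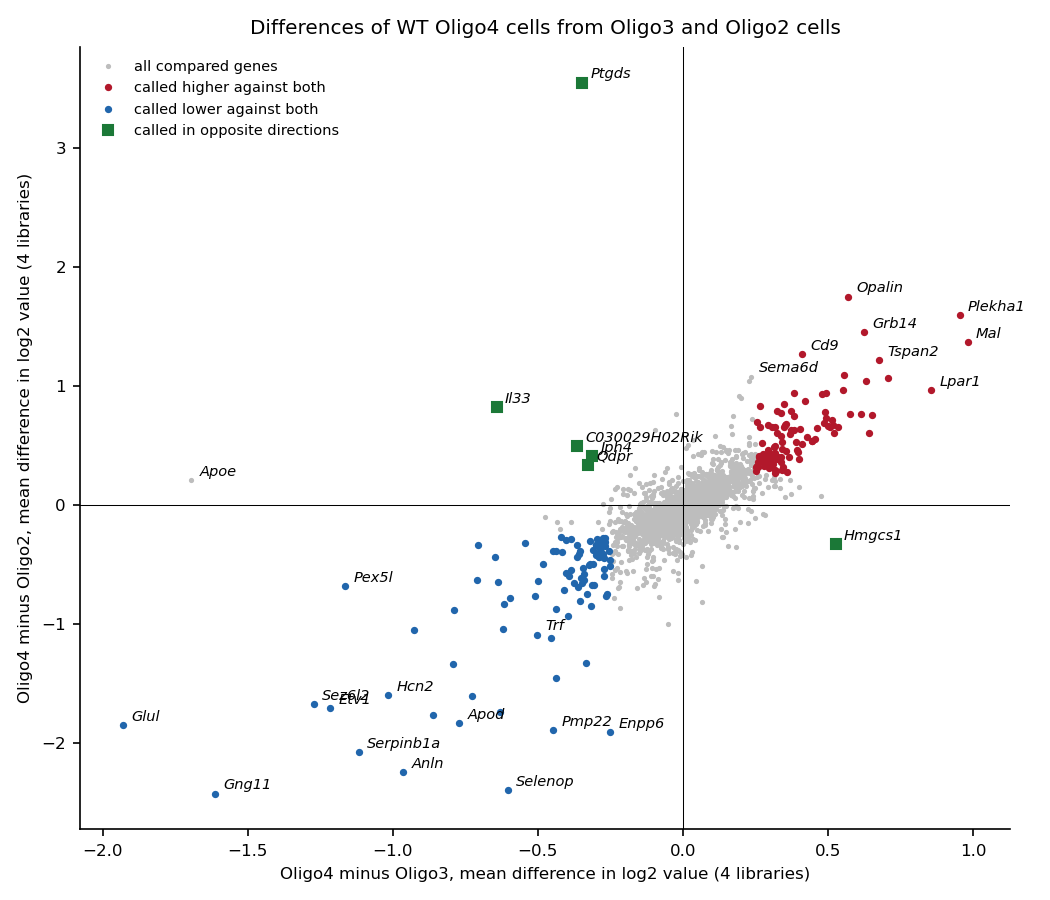
Each point is a gene, with its mean difference between Oligo4 and Oligo3 on the x axis and between Oligo4 and Oligo2 on the y axis (difference of log2 values, mean of 4 WT libraries). The 102 genes higher than in both states lie at the upper right, the 92 lower than in both at the lower left, and Ptgds stands apart at 3.55 against Oligo2. Both axes share the Oligo4 values.

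The gene with the highest difference from Oligo3 was Mal, which encodes a small membrane proteolipid of compact myelin (chr2:127633226-127656695, minus strand, GRCm38). Its level was 7.23, 7.29, 7.33 and 7.51 in Oligo4, 6.20, 6.24, 6.43 and 6.56 in Oligo3, and 5.87, 5.86, 6.10 and 6.02 in Oligo2. The 3 states did not overlap, and mean normalized counts were 1.93-fold those of Oligo3 and 2.60-fold those of Oligo2. Opalin, a glycoprotein of the oligodendrocyte membrane, was 4.31, 4.33, 3.87 and 4.00 in Oligo4, 3.81, 3.73, 3.37 and 3.34 in Oligo3, and 2.76, 2.53, 2.28 and 1.93 in Oligo2. Its level was lower in mouse 4 than in mouse 1 in all 3 states, yet each Oligo4 value was above all Oligo3 values. Tspan2, a tetraspanin of myelin, was 4.69 ± 0.10 in Oligo4 against 4.01 ± 0.07 in Oligo3 and 3.47 ± 0.13 in Oligo2. Cldn11, which builds the tight junctions between myelin layers, was 5.34 ± 0.11 in Oligo4 and near 4.7 in both other states (4.70 ± 0.13 and 4.74 ± 0.10).

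Not every myelin gene stood higher. Mog exceeded its Oligo3 level by 0.36 ± 0.07 and its Oligo2 level by 0.27 ± 0.09, and was called higher in both comparisons. Mbp differed by 0.14 ± 0.04 and 0.03 ± 0.04 and was not called. In the list of 18 other genes of myelin and its membranes, 7 were called higher and 1 lower than in Oligo3, and 7 higher and 5 lower than in Oligo2, with list medians of 0.15 and 0.06. Mobp, Cnp, Mal, Cldn11, Opalin, Tspan2 and Cd9 were the 7 above Oligo3. Against Oligo2, Pllp took the place of Mobp, and Gjb1 (-0.76), Ugt8a (-0.40), Ermn (-0.31) and Omg (-0.26) were among the lower genes. Gjb1 encodes a connexin of gap junctions, and Ugt8a makes the galactolipids of myelin.

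Some genes for contact with the axon were also in the higher set. Cntn1, a cell adhesion molecule of paranodes, was 0.76, 0.71, 0.76 and 0.96 in Oligo4, 0.15, 0.15, 0.25 and 0.33 in Oligo3, and at most 0.05 in Oligo2. It had a UMI in 39.5% of Oligo4 cells thinned to 5000 UMIs (66.5% unthinned), in 11.9% of Oligo3 cells (21.1%) and in 1.35% of Oligo2 cells (3.86%). Ank3, Nfasc and Lgi3 were higher too, by 0.42, 0.38 and 0.27 over Oligo3 and by 0.87, 0.75 and 0.83 over Oligo2. Nfasc encodes the glial neurofascin of the paranodal junction and Ank3 an ankyrin that ties membrane proteins to the spectrin skeleton. These were the 4 genes called higher of the 16 in the list of axon and glia contact, none of which was called lower than in Oligo3. Epb41l2 (-0.61) and Epb41l3 (-0.29), 2 band 4.1 proteins, were lower than in Oligo2.

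Lpar1, a receptor for lysophosphatidic acid, varied little between libraries. It measured 3.13, 3.24, 3.10 and 3.14 in Oligo4, and all Oligo3 values (2.25 to 2.35) and Oligo2 values (2.14 to 2.27) lay below these. Plekha1, which encodes a phosphoinositide-binding adaptor, was 2.58, 2.21, 2.26 and 2.27 in Oligo4, 1.37, 1.38, 1.40 and 1.36 in Oligo3, and 0.73, 0.78, 0.80 and 0.63 in Oligo2. Grb14, an adaptor of the insulin receptor, was higher by 0.62 ± 0.08 and 1.45 ± 0.15. Ptn, a secreted growth factor, was higher by 0.65 ± 0.07 and 0.76 ± 0.11. Sh3gl3 (0.71 and 1.07), Prickle1 (0.63 and 1.04), Man1a (0.61 and 0.77), Ttyh1 (0.56 and 1.09) and Tmem141 (0.53 and 0.66) were also among the 15 highest against Oligo3, with Mal, Plekha1, Lpar1, Tspan2, Ptn, Cldn11, Grb14, Cntn1 and Opalin. Sh3gl3 encodes an endophilin, Prickle1 a planar polarity protein and Man1a an N-glycan mannosidase.

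**Figure D3:**
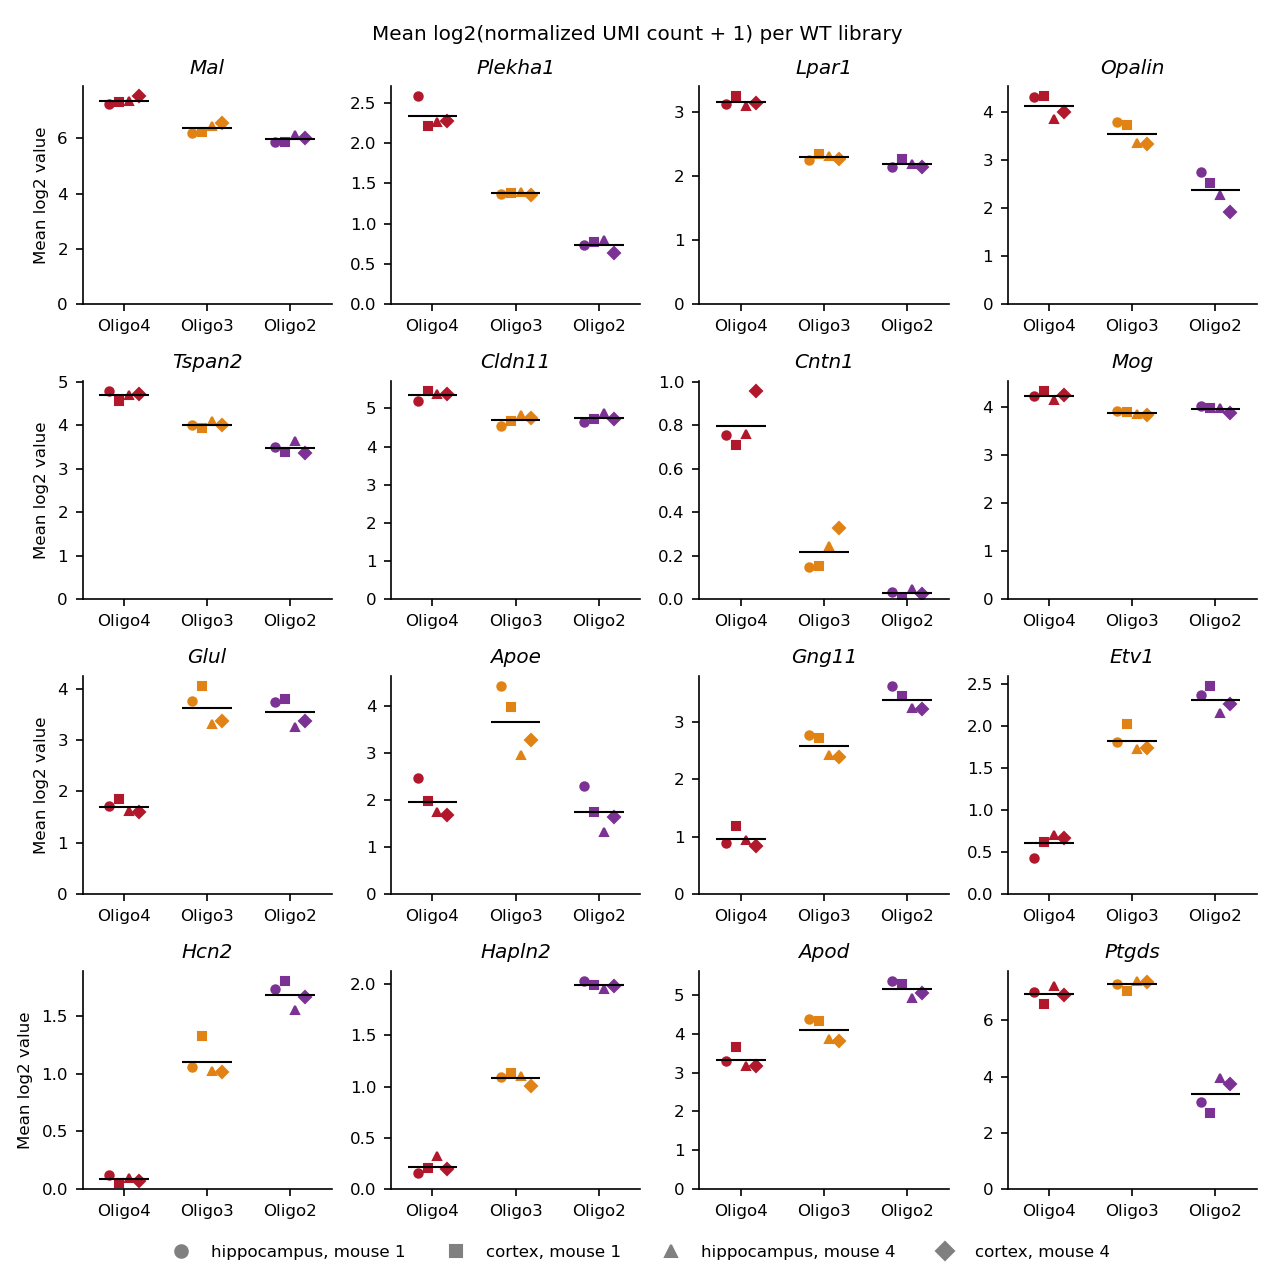
Mean log2(normalized UMI count + 1) of 16 genes in Oligo4, Oligo3 and Oligo2 cells of each WT library (symbols), with the mean over libraries as a line and each y axis starting at 0. Mal, Plekha1, Lpar1 and Opalin are highest in Oligo4, Glul, Gng11, Etv1, Hcn2 and Hapln2 are lowest there, and Ptgds is near 7 in Oligo4 and Oligo3 but 3.38 in Oligo2.

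The gene furthest below Oligo3 was Glul, glutamine synthetase, the enzyme that makes glutamine from glutamate (chr1:153899944-153909723, plus strand). It was 1.71, 1.85, 1.62 and 1.60 in Oligo4, 3.77, 4.05, 3.32 and 3.37 in Oligo3, and 3.74, 3.79, 3.26 and 3.38 in Oligo2. Mean normalized counts in Oligo3 were 4.77-fold those in Oligo4, and those in Oligo2 4.08-fold. Apoe, the main lipid carrier of the brain, was 2.48, 1.97, 1.74 and 1.68 in Oligo4 and 4.42, 3.99, 2.96 and 3.29 in Oligo3. In Oligo2 it was 2.29, 1.75, 1.33 and 1.65, so that Apoe set Oligo4 apart from Oligo3 alone. Both genes are also abundant in astrocytes, whose summed markers were lower in Oligo4 as given above, and Slc1a2, the astrocyte glutamate transporter, was lower than in Oligo3 by 0.25 ± 0.03. Without the cells that held at least 2 markers of a single other cell type, which removed 57.0% of Oligo4 and 61.4% of Oligo3 cells, Glul differed by -1.90 and Apoe by -1.67. This step drops cells and takes no RNA out of those kept, and the part of astrocyte RNA was not tested.

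Of 7 compared ion channel genes, Hcn2 and Kcnj10 were called lower in both comparisons and none higher, with list medians of -0.03 and -0.01. Hcn2, a cation channel opened by hyperpolarization, was 0.12, 0.06, 0.10 and 0.07 in Oligo4 and at least 1.01 in every Oligo3 and Oligo2 library. It had a UMI in 3.45% of thinned Oligo4 cells (10.99% unthinned), in 48.3% of Oligo3 cells (63.1%) and in 72.2% of Oligo2 cells (87.6%). All cells of the matrix are oligodendrocytes, so the share in a cell type without the gene could not be set beside these. Kcnj10, an inward rectifier potassium channel, was lower by 0.29 in both comparisons. Gng11, a G protein gamma subunit, was 0.89, 1.18, 0.94 and 0.84 in Oligo4, against 2.40 to 2.77 in Oligo3 and 3.23 to 3.62 in Oligo2. Pex5l, which binds HCN channels, was lower by 1.16 ± 0.12 and 0.68 ± 0.30. Sez6l2, a membrane protein, was lower by 1.27 ± 0.23 and 1.67 ± 0.23.

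Etv1, an ETS transcription factor, was among the 15 genes furthest below Oligo3. Its level was 0.43, 0.63, 0.71 and 0.67 in Oligo4, 1.81, 2.03, 1.73 and 1.74 in Oligo3, and 2.36, 2.47, 2.15 and 2.26 in Oligo2. None of the 13 compared transcription factors of the oligodendrocyte lineage was called against Oligo3, and Sox10 (-0.05) and Myrf (-0.11) stayed near 0. Olig1 (0.47), Olig2 (0.42) and Zfp536 (0.39) were higher than in Oligo2. The list of 17 compared genes of newly formed oligodendrocytes had 3 higher and 1 lower gene in each comparison. Marcksl1 was higher than in Oligo3 only (0.47), Chn2 than in Oligo2 only (0.35), and Tmem163 and Lims2 than in both. Enpp6, a choline phosphodiesterase known from newly formed cells, was the lower gene, at 0.10 ± 0.05 in Oligo4, 0.36 ± 0.06 in Oligo3 and 2.01 ± 0.11 in Oligo2.

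On the axis of mature subtypes, all 8 compared genes of the Klk6 side were called lower than in Oligo2, and 1, Hapln2, was lower than in Oligo3. Hapln2, a link protein of the matrix at nodes, was 0.16, 0.21, 0.33 and 0.19 in Oligo4, 1.10, 1.14, 1.10 and 1.00 in Oligo3, and 2.03, 1.99, 1.95 and 1.98 in Oligo2. S100b, a calcium-binding protein, was lower than in Oligo2 by 1.00 but than in Oligo3 by only 0.05, and Klk6 had a UMI in 0.515% of thinned Oligo4 cells, 0.721% of Oligo3 cells and 17.6% of Oligo2 cells (0.715%, 1.66% and 24.1% unthinned). Of the 9 genes of the Apod side, 7 were lower than in Oligo3 and none higher. Apod, a lipocalin, was 3.29, 3.66, 3.17 and 3.16 in Oligo4, below every Oligo3 value (3.82 to 4.39) and every Oligo2 value (4.93 to 5.35). Car2, carbonic anhydrase, was lower by 0.71 ± 0.12 and 0.63 ± 0.13. Il33, an alarmin of the interleukin 1 family, was 1.73, 1.65, 0.88 and 0.65 in Oligo4, with the mice apart, and lay below Oligo3 and above Oligo2 in each library.

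Against Oligo2 the Apod side split, with 5 genes higher and 3 lower. Ptgds, prostaglandin D2 synthase, was 7.01, 6.58, 7.23 and 6.90 in Oligo4, 7.30, 7.05, 7.39 and 7.37 in Oligo3, and 3.11, 2.70, 3.97 and 3.74 in Oligo2. The Oligo4 and Oligo2 values were 3.55 ± 0.39 apart. Selenop, the selenium transport protein, was at 0.12 ± 0.04 in Oligo4, 0.72 ± 0.16 in Oligo3 and 2.52 ± 0.35 in Oligo2, and Pmp22, a protein of peripheral myelin, at 0.03 ± 0.01, 0.47 ± 0.24 and 1.92 ± 0.38. Serpinb1a, Anln, Spock3, Slco3a1 and Tppp3 were lower than in both states too, by 0.44 to 1.12 against Oligo3 and by 1.45 to 2.24 against Oligo2. Anln, anillin, is a scaffold of septins in myelin, and the septin gene Sept8 was lower by 0.79 and 1.34.

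Lists of lipid synthesis held more calls against Oligo2 than against Oligo3, as did the compared genes as a whole. Of all compared genes, 1.33% were called higher and 1.17% lower than in Oligo3, against 2.59% and 3.20% for Oligo2. Of 21 genes of cholesterol synthesis, Hmgcs1 and Cyp51 were called higher than in Oligo3, with a list median of 0.06, and 8 were called lower than in Oligo2, with a median of -0.15. Hmgcs1, which makes the precursor of mevalonate, was 1.91, 2.13, 2.11 and 2.18 in Oligo4, 1.34, 1.43, 1.85 and 1.61 in Oligo3, and 2.23, 2.22, 2.80 and 2.41 in Oligo2. The 8 genes below Oligo2 were Idi1 (-0.51), Msmo1 (-0.34), Hmgcs1 (-0.33), Fdft1 (-0.32), Ebp (-0.31), Sc5d (-0.28), Fdps (-0.27) and Sqle (-0.27). Of 14 genes of fatty acid and sphingolipid synthesis, Cers2, a ceramide synthase, was higher than in both states by 0.32 and 0.30, and against Oligo2 4 were higher and 4 lower. In iron handling, transferrin (Trf) and ferritin heavy chain (Fth1) were the 2 lower genes of 7 compared. Trf was lower by 0.50 ± 0.17 and 1.09 ± 0.17 and Fth1 by 0.32 ± 0.06 and 0.85 ± 0.09. The 13 mitochondrial genes had medians of -0.14 and 0.13, with 13 below 0 against Oligo3 and 12 above 0 against Oligo2, but none called. The median mitochondrial share of UMIs per Oligo4 cell was 4.40%, 5.20%, 4.85% and 5.81%, below Oligo3 (4.97%, 5.76%, 5.30% and 6.50%) and above Oligo2 (4.12%, 4.75%, 4.23% and 5.73%) in each library. Of 81 ribosomal protein genes, which share sequence with pseudogenes, 2 and 6 were called lower, with medians of -0.11 in both comparisons.

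Counts in the lists of stress, immune and other genes stand beside the share over all compared genes. That share was 1.33% higher and 1.17% lower against Oligo3, and 2.59% higher and 3.20% lower against Oligo2. Against Oligo2 several of these small lists held larger shares. No gene of 6 compared in interferon response and class I presentation was called, and of 7 immediate early genes only Jun was, higher than in Oligo2 by 0.47. Dnaja1 was the single heat shock gene of 10 called against Oligo3, at 0.30. Against Oligo2, 2 of the 10 were called higher, and the highest difference was that of Hsp90aa1 (0.44). All 10 lay above 0 in both comparisons, with list medians of 0.04 and 0.05. Of 10 listed genes that the study named for Oligo1, only 4 reached the 5% detection limit and were compared. Of these 4, only Ly6a was called, lower than in Oligo2 by 0.28. No gene of the glycolysis, lysosome, cytoskeleton, respiratory chain and glucocorticoid lists was called against Oligo3. Against Oligo2, 1 of 15 cytoskeleton genes was higher (Mapt, which encodes tau, 0.41) and 5 were lower, the lowest being Map1b (-0.69) and Tuba1a (-0.67). Of 17 lysosome genes 3 were higher than in Oligo2, Cd63 (0.77), Psap (0.31) and Ctsb (0.26). In glycolysis Tpi1 (0.40) and Pkm (0.28) were higher and Ldhb (-0.86), a lactate dehydrogenase subunit, lower, and of 13 glucocorticoid-responsive genes Mt1 (0.63) and Ddit4 (0.28) were higher and Errfi1 (-0.38) and Klf9 (-0.31) lower. Ndufa4 (-0.29) was the single gene called of 86 of the respiratory chain. Of 6 nuclear long RNAs, Neat1 was lower than in Oligo3 and Oligo2, by 0.79 and 0.88, while Kcnq1ot1 was lower (-0.64) and Malat1 higher (0.38) than in Oligo2 only.

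**Figure D4:**
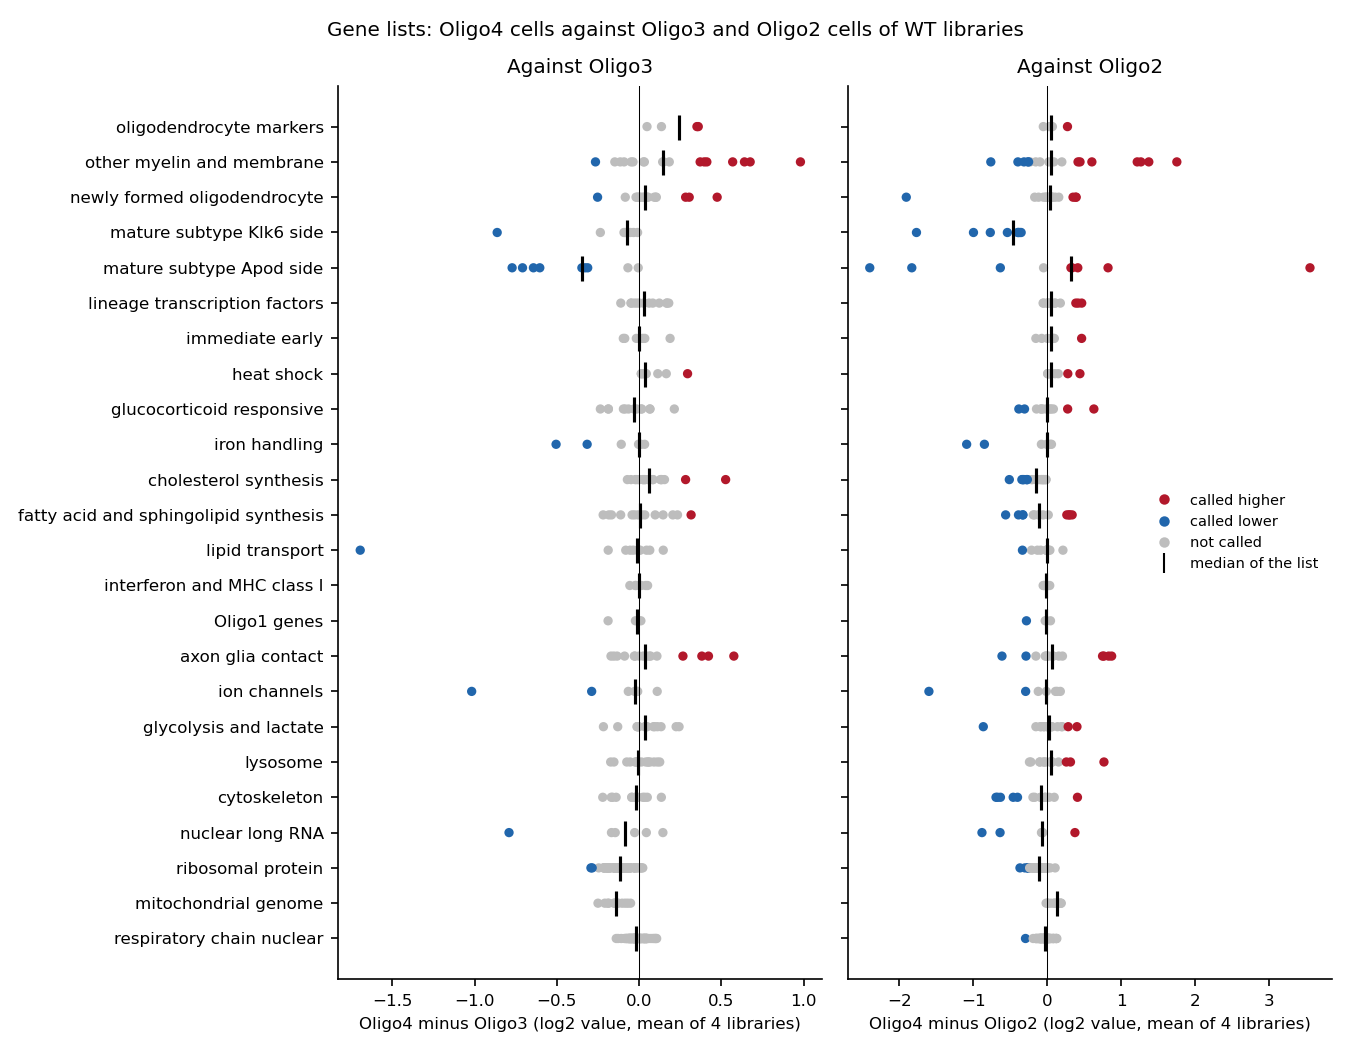
Each point is a gene of a list, placed by its mean difference in log2 value between Oligo4 and Oligo3 (left) or Oligo2 (right) over 4 WT libraries. Red points were called higher, blue points lower and grey points neither, and black ticks are list medians. All 8 genes of the Klk6 side lie below 0 on the right, and 7 of 9 of the Apod side are blue on the left.

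Stretches of 250 bases before the RefSeq start (GRCm38.p6) are shown for a gene of the higher and a gene of the lower set, since the results turn on these sets. Capitals mark ACAAAG, a core of SOX factor sites, and CAGCTG, an E-box, on either strand.
Opalin, chr19:41077114-41077363, minus strand: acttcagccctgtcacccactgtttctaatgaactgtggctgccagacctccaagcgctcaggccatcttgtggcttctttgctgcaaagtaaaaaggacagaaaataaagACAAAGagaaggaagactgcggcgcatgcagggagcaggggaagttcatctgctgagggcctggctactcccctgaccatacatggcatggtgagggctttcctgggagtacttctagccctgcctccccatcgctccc
Glul, chr1:153899679-153899928, plus strand: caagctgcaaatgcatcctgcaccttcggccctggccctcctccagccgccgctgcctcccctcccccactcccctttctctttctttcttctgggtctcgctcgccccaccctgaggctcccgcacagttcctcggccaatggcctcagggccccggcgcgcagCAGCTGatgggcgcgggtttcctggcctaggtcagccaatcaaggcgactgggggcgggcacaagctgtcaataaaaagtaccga
The motifs do not overlap each other. The same stretch held neither motif for Mal and Plekha1, the 2 genes with the highest differences from Oligo3. Using the first listed start of a gene, ACAAAG occurred before 10.8% of the 93 genes higher than in Oligo3 that the table holds and before 12.2% of the 82 lower genes, against 11.1% of 7450 compared genes. CAGCTG occurred before 10.8% and 13.4% of them, against 10.7% of all. For genes higher than in Oligo2 the share with CAGCTG was 18.4% of 185, and for genes lower than in Oligo2 it was 10.6% of 235. A match is a run of letters and not a measured site.

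Oligo4 cells were not uniform. In the finest deposited clustering (k = 10), 144 WT Oligo4 cells fell into sub-cluster 5, which held a single Oligo3 cell, and 252 fell into sub-cluster 7 together with 326 Oligo3 cells. The remaining 13 cells were spread over sub-clusters 4, 9 and 2. Sub-cluster 5 held 40.9%, 39.5%, 31.2% and 29.9% of Oligo4 cells in the 4 libraries. At k = 80 the 409 cells stayed together and were joined by 95 Oligo3 cells and 4 Oligo1 cells. At k = 120, however, 108 of the 409 fell with 1733 Oligo3 cells, and at k = 150, 68 fell with 3873 Oligo3 cells. Between sub-clusters 5 and 7 of Oligo4, 41 genes (0.441%) were called higher in 5 and 44 (0.473%) lower by the same limits. As these clusters too were made from the expression values, this is a description.

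Some of the genes that separated Oligo4 from Oligo3 also differed within it. Of the 124 higher genes, 33 were called higher in sub-cluster 5 than in sub-cluster 7 and 0 lower, and of the 109 lower genes, 21 were called lower and 0 higher. By their means alone, of the 124 genes higher than in Oligo3, 96 fell in the order Oligo4 of sub-cluster 5, Oligo4 of sub-cluster 7, Oligo3 of sub-cluster 7 and the other Oligo3 cells, and 91 of the 109 lower genes rose in that order. Mal was 7.60 ± 0.11, 7.20 ± 0.18, 6.69 ± 0.15 and 6.33 ± 0.16 in these 4 sets of cells (SD over 4 libraries). Lpar1 was 3.38 ± 0.04, 3.05 ± 0.10, 2.65 ± 0.12 and 2.27 ± 0.05. Glul was 1.27 ± 0.19, 1.96 ± 0.17, 3.12 ± 0.32 and 3.67 ± 0.33, and Gng11 was 0.74 ± 0.24, 1.08 ± 0.12, 1.67 ± 0.11 and 2.66 ± 0.18. The order is partly set by the choice of genes, which were called on all Oligo4 cells against all Oligo3 cells.

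Sub-cluster 5 held the higher myelin gene levels. Relative to Oligo4 cells of sub-cluster 7, Igsf8, a partner of tetraspanins, was higher by 0.52 ± 0.14, Gamt, which makes creatine, by 0.42 ± 0.25, Cnp by 0.40 ± 0.03, Mal by 0.40 ± 0.14 and Mog by 0.36 ± 0.11. Of the 18 other myelin genes 7 were called higher and 1 lower. Pex5l was lower by 0.89 ± 0.14, Glul by 0.69 ± 0.17, Apoe by 0.62 ± 0.45, Il33 by 0.54 ± 0.27 and Malat1, a nuclear long RNA, by 0.42 ± 0.18. The median depth of sub-cluster 5 was above that of sub-cluster 7 in each library, by as much as 13575 against 11196 UMIs in the hippocampus of mouse 1, and the part of depth in these differences was not tested.

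**Figure D5:**
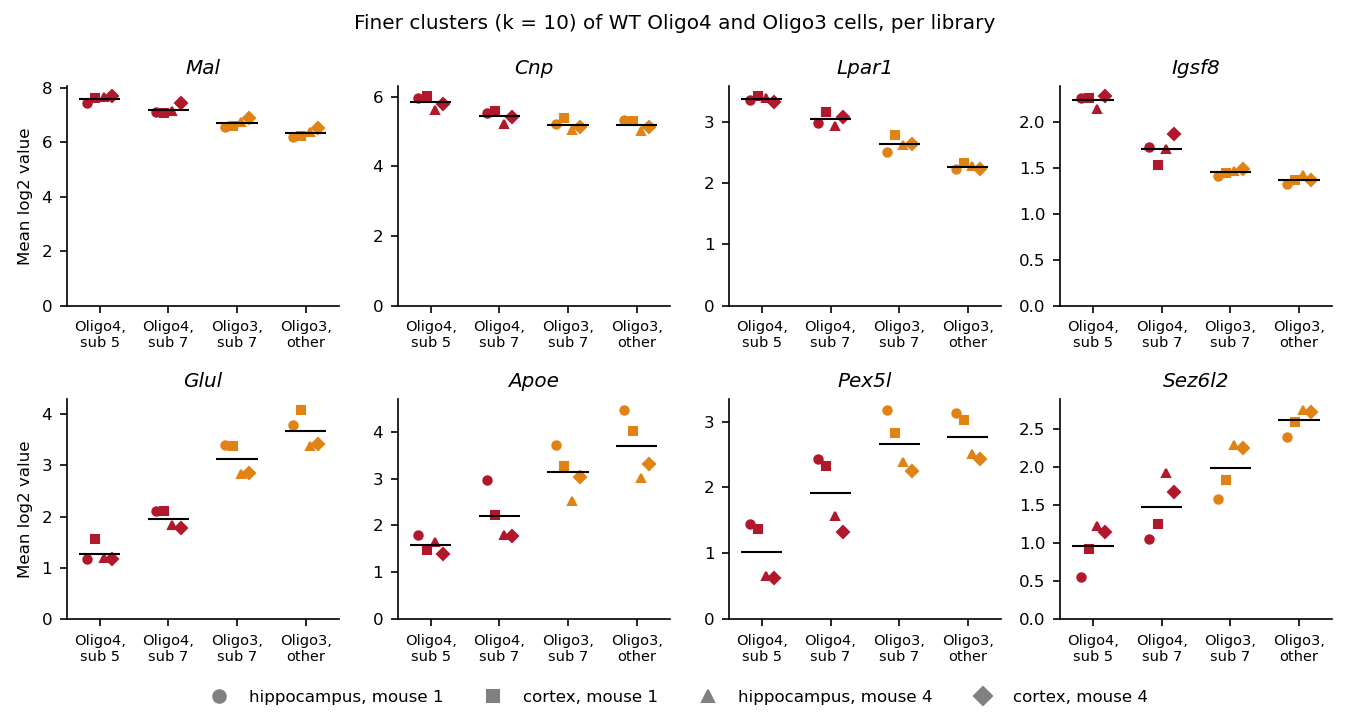
Mean log2(normalized UMI count + 1) of 8 genes in 4 sets of WT cells, per library (symbols) with the mean as a line: Oligo4 of sub-clusters 5 and 7, Oligo3 of sub-cluster 7 and other Oligo3 cells. Mal falls from 7.60 to 6.33 and Glul rises from 1.27 to 3.67 from left to right.

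Hippocampal and cortical Oligo4 cells were compared across libraries, which the clustering did not fix. As each library was its own batch, tissue cannot be told apart from batch within a mouse in any comparison of tissues here. By limma on the library means without a block, 0 of 9332 genes were called at an adjusted p under 0.05, while for 196 the p before adjustment was under 0.05. The 2 hippocampal and 2 cortical values did not overlap for 28.1% of genes. Both libraries of a number come from the same animal, and with the mouse as a block limma called 4 genes. The p-values under the block rest on a spread that limma pooled over genes, not on each gene's own spread between mice. Ptgds was higher in hippocampus by 0.38 ± 0.06 (SE, adjusted p = 2.9e-05, limma with mouse block), at 7.01 and 7.23 against 6.58 and 6.90 in cortex. Malat1 was higher by 0.20 ± 0.04 (adjusted p = 0.00014, limma with mouse block). The mitochondrial gene mt-Nd3 (-0.43) and Gm42418 (-0.38), a locus that overlaps ribosomal RNA, were lower in hippocampus (both adjusted p = 0.019, limma with mouse block). Within mouse 1 and mouse 4, the differences were 0.43 and 0.33 for Ptgds and 0.23 and 0.17 for Malat1. They were less alike for mt-Nd3 (-0.29 and -0.58) and Gm42418 (-0.60 and -0.16), and the mt-Nd3 values of the tissues overlapped. Oligo3 cells of the same libraries differed between tissues by 0.14, 0.12, -0.53 and -0.39 for Ptgds, Malat1, mt-Nd3 and Gm42418. Without a block, edgeR and DESeq2 on summed UMIs called 0 genes, with 209 and 12 genes under 0.05 before adjustment. With the mouse block, edgeR called 17 genes. Its adjusted p under the block was 1.7e-07 for mt-Nd3, 0.00011 for Gm42418, 0.015 for Ptgds and 0.22 for Malat1. Without the block, leaving out the cortex library of mouse 4 gave 16 genes, leaving out the cortex library of mouse 1 gave 9, and leaving out either hippocampal library gave 0.

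Whether the gap between Oligo4 and Oligo3 differed between tissues was tested on the within-library differences. Limma called 0 of 9269 genes, with or without the mouse block, and before adjustment 400 genes without it and 441 with it had a p under 0.05. Among genes without overlap between tissues, which were 33.2% of all, the Oligo4 minus Oligo3 value was higher in hippocampus by 0.26 for M6pr, 0.25 for Sema6d and 0.24 for Ptgds, and lower by 0.25 for Smarcc1, 0.24 for Shtn1 and 0.23 for Apod. For Apod, Oligo4 lay below Oligo3 by 1.10 in the hippocampus of mouse 1 and by 0.65 to 0.68 in the other 3 libraries. For Ptgds the gap was -0.29 and -0.16 in hippocampus and -0.47 in both cortex libraries.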

How the data were processed

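Single-cell RNA was measured in 8 libraries, of which the 4 WT libraries were used. The authors aligned reads with Cell Ranger 5.0.0 to mm10, filtered cells, normalized with scran and deposited a matrix of log2 values, log2(UMI count over size factor + 1), for 18833 genes and 12581 cells. The deposited cell table gives total and mitochondrial UMI counts per cell and the percent of UMIs that were mitochondrial, computed by the authors. All values gave back whole UMIs within 0.001. WT libraries held 12766885 to 23275344 UMIs. Cells were sorted on scatter against doublets and no doublet caller was run here.

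Library means of log2 values were compared between clusters without a test, and between tissues with limma 3.58.1 in R 4.3.3 (eBayes with trend, Benjamini-Hochberg adjustment). Folds are ratios of mean normalized counts. edgeR 4.0.16 and DESeq2 1.42.0 on summed UMIs were alternatives. Cells were thinned at random without replacement. Steps were tested on simulated data. Libraries with a common mouse number come from the same animal, and their deviations from tissue means correlated at 0.53 over genes in Oligo4. Limma's p-values rest on a spread that eBayes draws toward a trend over all genes. With libraries of 2 mice, they do not measure each gene's own spread between mice.

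Coordinates are from GENCODE vM21. Named genes were the 15 highest and 15 lowest per contrast with the same sign in 4 of 4 libraries, list members and, per tissue test, the called genes or the 3 highest and 3 lowest without overlap. Genes called under the block and the genes opposite in direction, and those named between sub-clusters, were chosen after their values were seen. The members and lists were chosen with earlier results of these data known. Some genes within these rules are not reported here.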

Additional observations from a re-analysis of the deposited data

How the results depend on the processing

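No called difference of a named gene from Oligo3 or Oligo2 changed sign under the alternatives run. For leaving out a library this was fixed in advance, since a call needs the same sign in all 4 libraries. The filters do not change a gene's value and could not reverse a sign either. The 254 differences followed include some that were not called, for which a change of sign was not marked. Over all alternatives, 2372 values stayed within the SD over libraries of the value above and 420 moved further. Leaving out 1 of the 4 libraries cannot move a mean by as much as that SD, and the filters leave a gene's value unchanged. Part of the 2372 was thus fixed in advance, and the 420 came from the other alternatives alone. Most counts of genes called stayed within 1.5 times the values above, also with cells thinned to 5000 UMIs, with a filter of 10% of cells or none and without cells holding markers of other cell types. Scales without the pull of the added 1 toward 0 raised them. With log2 of the mean plus 0.1, 485 genes were higher and 727 lower than in Oligo3 and 938 higher and 1152 lower than in Oligo2. With edgeR's TMM log2 fold changes the counts were 830, 1049, 1343 and 1442. All of the genes called above were among them. The tissue comparison of Oligo4 gave 0 genes without a block, 4 with the mouse as a replicate block, 17 with edgeR and the mouse block, which was chosen after seeing the data, and 0 to 16 when a library was left out, with 16 without the cortex of mouse 4, 9 without the cortex of mouse 1 and 0 without either hippocampal library. The test of the Oligo4 and Oligo3 gap by tissue gave 0 genes in all alternatives run, the replicate block included. The mouse block left the difference in shares at 3.37 points (no paired p is given, as 2 pairs allow none below 0.5), and leaving out a library moved it from 0.471 to 6.28 points. The WT group has 2 mice, 38 cells stand behind the Oligo4 values of the cortex of mouse 1, and low genes are limited by this depth.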
